A study of Mus musculus with 12 samples.

Results

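The genes described here encode the proteins of the cytosolic ribosome in 3T3-L1 cells, a mouse preadipocyte line. Members were taken by gene name: names that begin with Rpl or Rps followed by a number or the letter p, with the Rps6 kinases, pseudogene names ending in -ps and names that carry a suffix after an underline character left out. The rule found 88 genes among the 39423 rows of the count table. Of these, 46 encode large-subunit proteins and 30 encode small-subunit proteins, so 76 were members of the ribosome. Another 11 were paralogs or copies (Rpl3l, Rpl7l1, Rpl10l, Rpl22l1, Rpl32l, Rpl36al, Rpl37rt, Rpl39l, Rps4l, Rps27l and Rps27rt), and Rps19bp1 matched by name although its product binds RPS19 and is not a ribosomal protein. Rpsa, Fau and Rack1 also encode proteins of this ribosome but carry names of another form, and they are given separately below.

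The study compared 3T3-L1 cells transfected with a nontargeting siRNA (siCtrl) with cells transfected with siRNA against Prmt1 (siPRMT1), which encodes a protein arginine methyltransferase. All cells then received DMI, a cocktail of dexamethasone, 3-isobutyl-1-methylxanthine and insulin that starts adipogenesis, and RNA was sequenced after 24 h (day 1) or 72 h (day 3). Each of the 4 groups had 3 libraries, 12 in all. The knockdown was transient and was made in 1 cell line, and the labels do not say whether libraries of a group came from separate cultures, so p-values measure the spread between these samples, which may be technical.

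Each ribosome holds a single copy of nearly every one of these proteins, arranged around the ribosomal RNAs, and growing cells make the set in step. The small subunit reads the messenger RNA, while the large subunit joins amino acids and threads the new chain through its exit tunnel. The messenger RNAs of these proteins typically begin with a cytosine followed by an uninterrupted run of pyrimidines, the terminal oligopyrimidine (TOP) tract, through which mTORC1 and LARP1 control their translation. After DMI, confluent 3T3-L1 cells first divide again and then exit the cell cycle as they fill with lipid.

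The following windows show the bases around the annotated start of some of the members described below, because the TOP tract is the sequence feature these messenger RNAs are known to share. Each holds 15 bases before and 15 bases from the RefSeq start on GRCm38.p6, 5′ to 3′ on the gene's strand. Capitals mark the longest stretch of C and T, of at least 5 bases, that opens with a C within 5 bases of the start. C or T bases further upstream are in lower case even where they continue the stretch, as in Rpl35. The first 5 have a run that includes the annotated start, Rpl22l1 and Rps27l have one that begins after it, and the last 3 have none.
Rps27, chr3:90213634-90213663, minus strand: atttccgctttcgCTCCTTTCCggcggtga
Rpl28, chr7:4792950-4792979, plus strand: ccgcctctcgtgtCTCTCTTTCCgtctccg
Rpl15, chr14:18270972-18271001, minus strand: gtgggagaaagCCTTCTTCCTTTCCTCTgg
Rpl35, chr2:39005117-39005146, minus strand: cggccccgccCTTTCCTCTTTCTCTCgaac
Rps6, chr4:86857353-86857382, minus strand: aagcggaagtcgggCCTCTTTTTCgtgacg
Rpl22l1, chr3:28805493-28805522, plus strand: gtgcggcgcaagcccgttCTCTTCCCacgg
Rps27l, chr9:66946071-66946100, plus strand: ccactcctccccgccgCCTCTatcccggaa
Rps3a1, chr3:86142654-86142683, minus strand: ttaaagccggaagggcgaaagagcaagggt
Rps4x, chrX:102189377-102189406, minus strand: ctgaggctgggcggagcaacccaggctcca
Rplp0, chr5:115559452-115559481, plus strand: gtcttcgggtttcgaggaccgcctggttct
A window was found for 67 of the 88 members. The annotated start was a C that opened at least 5 bases of C and T, a run at the start, in 15 of them (22.4%), against 3.01% of all 27025 genes with a window. A run anywhere within the 5 bases on either side was present in 31 (46.3%), against 21.2% of all genes. A gene with several annotated starts, such as Rps27l, was counted where any of them had a run. The 69 mitochondrial ribosomal protein genes with a window had none at the start and 17 near it (24.6%). Annotated starts can lie some bases away from the start that a cell uses, so a window without capitals says only that these letters were not in it.

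Library depth ranged from 15116462 to 42357137 counts. Prmt1 stood at 146, 145 and 166 CPM (counts scaled to a common library size with TMM factors) in siCtrl at day 1 and at 73.6, 63.7 and 68.0 in siPRMT1. At day 3 it stood at 179.7, 199 and 229.6 in siCtrl and at 102, 118 and 113 in siPRMT1. The targeted gene was therefore lower in every siPRMT1 library, with a log2 fold change of -1.11, SE 0.0758, adjusted p = 0.000985 at day 1 and -0.88, SE 0.0883, adjusted p = 1.22e-05 at day 3. Preadipocyte and fibroblast markers (Pdgfra, Pdgfrb, Thy1, Col1a1 and Col3a1) summed to 876.9 to 970.6 FPKM (fragments per kilobase of gene length, scaled to library size) in siCtrl at day 1, 857.9 to 915.2 in siPRMT1 at day 1, 438.3 to 469.6 in siCtrl at day 3 and 524.8 to 598.2 in siPRMT1 at day 3. Adipocyte markers (Pparg, Cebpa, Fabp4, Adipoq, Plin1 and Lpl) summed to 143.7 to 149 FPKM, 109 to 122.7, 2068 to 2239 and 1627 to 1843 in the same order. Both marker sums therefore differed between siRNAs at day 3, without overlap, and the adipocyte sum also at day 1. Single markers did not all follow their sum. At day 3 the siRNAs overlapped in Thy1, Col1a1 and Fabp4 and not in the other markers of the 2 lists. At day 1 they overlapped in Fabp4, Lpl and Plin1 and not in the other adipocyte markers. The part of these differences between marker levels in the results below was not tested. Macrophage, endothelial and muscle markers each summed to at most 2.84, 0.87 and 0.03 FPKM. The leukocyte gene Ptprc and the muscle gene Myod1 were at 0 in all 12 libraries, and the epithelial gene Krt8 accounted for nearly all of an epithelial sum of up to 9.54 FPKM.

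Fragments per kilobase allow levels to be compared between genes as far as the deposited gene lengths match the transcripts that were present. The ranking below depends on those lengths. Rps24, with a length of 3432 bases and 162487 counts, had a mean of 160.6 FPKM. Rpl32, with 504 bases and 140995 counts, had 962.8. Rplp0, which anchors the stalk that recruits elongation factors, had the highest level of the 88, with a mean of 1348 FPKM over the 12 libraries and a range of 1193 to 1495. Rpl41 and Rplp1 followed at 1047 and 1005 FPKM, and Rpl32 and Rpl12 at 962.8 and 962.5. The ranges of these 4 over the libraries overlapped one another, from 939.2 to 1173 for Rpl41, 911.8 to 1102 for Rplp1, 876 to 1034 for Rpl32 and 822.1 to 1104 for Rpl12. In all, 41 of the 88 members were among the 100 highest genes of the table by mean FPKM.

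The lowest levels belonged to copies and to members with further rows elsewhere in the table. Rpl10l and Rpl39l, which are used mainly in the male germ line, and Rps4l had no count in any library. Rpl32l had 2 counts in 1 library, and Rpl3l, the muscle paralog of Rpl3, had 0 to 6 counts per library. Rps10 had 0 to 4 counts per library and Rps18 17 to 50, although each is a single-copy part of every ribosome. Rows with the same names and a numeric suffix, on other scaffolds, held 206 to 437 counts per library for Rps10 and 102 to 336 for Rps18. The levels of Rps10 (0.063 FPKM) and Rps18 (2.23) are therefore uncertain as measures of those proteins' messenger RNAs, and how reads that fit several places were counted is not given in the sources used here. Rpl29 (9.54 FPKM) and Rpl34 (33.6) were the next lowest of the tested members. The 6 members without a test were Rpl10l, Rpl32l, Rpl39l, Rpl3l, Rps10 and Rps4l, which did not pass the filter on low counts, and the remaining 82 were tested in every comparison.

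The 88 genes together took about 3% of all counts, and their share moved in opposite directions at the 2 days. At day 1 they held 3.36%, 3.35% and 3.13% of the counts in siCtrl and 3.08%, 2.88% and 2.98% in siPRMT1. At day 3 they held 2.69%, 2.91% and 3.00% in siCtrl and 3.23%, 3.04% and 3.05% in siPRMT1. The siPRMT1 libraries thus lay below the siCtrl libraries at day 1 and above them at day 3, without overlap at either day. Group means were 3.28% ± 0.129 (SD, n = 3) for siCtrl and 2.98% ± 0.0995 for siPRMT1 at day 1, and 2.87% ± 0.161 and 3.11% ± 0.109 at day 3. No test was run on the share, which sums over the members. The large-subunit genes held 2.15% ± 0.0763 (SD, n = 3) in siCtrl and 1.98% ± 0.0698 in siPRMT1 at day 1, and 1.93% ± 0.101 and 2.06% ± 0.0569 at day 3. The small-subunit genes held 1.08% ± 0.0535, 0.955% ± 0.0301, 0.875% ± 0.0639 and 0.986% ± 0.0493 in the same order. In bulk RNA, fewer cells of a kind and less RNA per cell cannot be told apart.

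**Figure D1:**
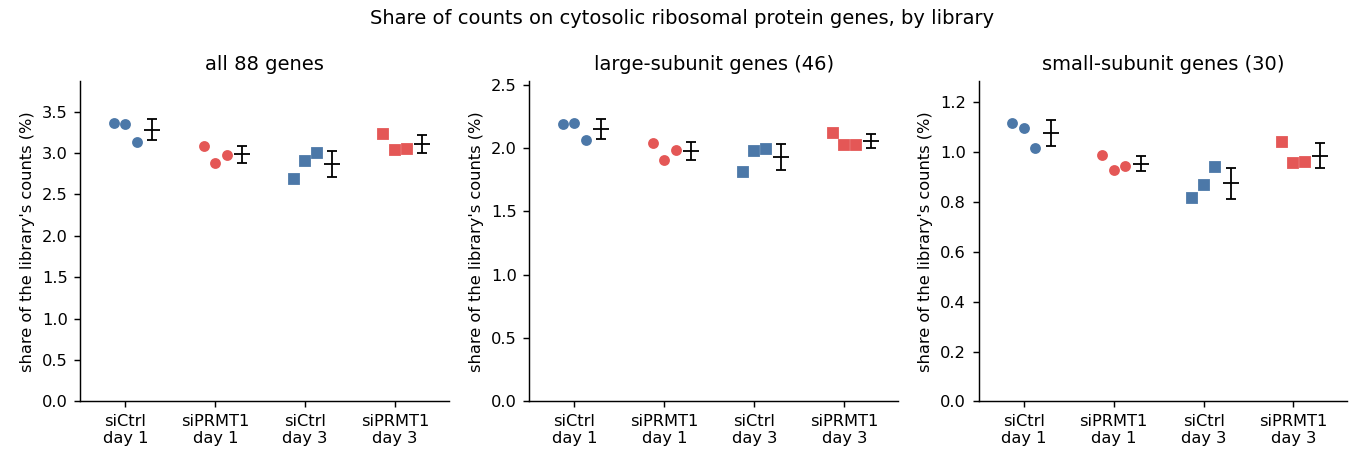
Share of each library's counts (%) on all 88 genes, on the 46 large-subunit genes and on the 30 small-subunit genes. Points are libraries (blue siCtrl, red siPRMT1; circles day 1, squares day 3), and the bar beside each group is its mean with 1 SD; the siPRMT1 points lie below the siCtrl points at day 1 (2.98% against 3.28% over all 88) and above them at day 3 (3.11% against 2.87%).

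Libraries of a group were not level with each other over these genes. Over the 81 members with at least 10 CPM, replicate 1 of siCtrl at day 3 lay 0.16 below the mean of the other 2 libraries of its group on the log2 scale (median over members), and replicate 3 of that group lay 0.12 above. Replicate 1 of siPRMT1 at day 1 lay 0.12 above and replicate 2 lay 0.10 below. These gaps are close in size to the median differences between groups below, and the results are given with and without the libraries concerned.

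At day 1 a set of ribosomal protein messenger RNAs was lower in siPRMT1 than in siCtrl, by amounts that were small for each gene. Of the 82 genes tested, 1 was lower by both thresholds (adjusted p below 0.05 and a log2 fold change beyond 0.5 in size, edgeR's quasi-likelihood test), against 1.61% of all 13689 genes. None was higher by both thresholds, against 1.95% of all genes. By adjusted p alone 20 were lower (4.38% of all genes) and 0 were higher (3.22% of all genes), while 37 were lower and 4 higher with p below 0.05 before adjustment. DESeq2 gave 24 lower and 0 higher by adjusted p alone. In this and the later comparisons the shares of all genes belong to edgeR's adjusted p. None is given for unadjusted p or for DESeq2, so those counts have no background beside them. The median log2 fold change of the 82 was -0.16, beside 0.0096 over all genes, and 72 of the 82 were negative. The small subunit had a median of -0.21 over 29 genes, of which 28 were negative, and the large subunit -0.15 over 46 genes, of which 40 were negative.

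The gene past both thresholds at day 1 was Rpl22l1, a paralog of Rpl22. It stood at 52.6, 44.9 and 33.3 CPM in siCtrl and at 25.1, 27.0 and 20.8 in siPRMT1 (log2 fold change -0.80, SE 0.182, adjusted p = 0.0354). The groups did not overlap, but the 3 siCtrl values were themselves far apart. Rps4x, the X-linked copy of a small-subunit protein, stood at 1028, 1014 and 925 CPM in siCtrl and 732, 709.6 and 689.7 in siPRMT1 (-0.43, SE 0.0699, adjusted p = 0.0122). Rpl7, a large-subunit protein, stood at 841, 806 and 785 CPM in siCtrl and 605, 607 and 587 in siPRMT1 (-0.39, SE 0.06, adjusted p = 0.0107). Both genes were lower in all 3 siPRMT1 libraries, by fitted differences of -25.8% and -23.6%. Rpl22, whose protein binds RNA and is dispensable for translation in general, stood at 264, 252 and 259.6 CPM in siCtrl and 200.3, 191 and 189.9 in siPRMT1 (-0.37, SE 0.0598, adjusted p = 0.0122). Rpl10, which completes the large subunit late in its assembly, had a log2 fold change of -0.30, SE 0.051, adjusted p = 0.0151. Rps6, the S6 kinase substrate, fell by 16.4% (-0.26, SE 0.0543, adjusted p = 0.0272).

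The other members that passed the adjusted p alone at day 1 included Rpl3, Rpl5, Rpl6, Rpl24, Rpl37a, Rpl39, Rps3a1, Rps7, Rps13, Rps15a, Rps20, Rps25 and Rps27l. At the opposite end, Rpl34 had the largest positive value, 0.39, SE 0.133, adjusted p = 0.119, and did not pass. Its levels were 18.7, 18.5 and 16.1 CPM in siCtrl and 23.8, 18.6 and 25.2 in siPRMT1, and the groups overlapped. The count of 20 was not stable when 1 library at a time was left out. It was 5 without siCtrl replicate 1, 0 without siCtrl replicate 2, 50 without siCtrl replicate 3 and 0 without any one of the siPRMT1 replicates, whereas the median of the members kept its sign in all 6 of these fits (-0.23 to -0.13). The call of Rpl22l1 was lost in 5 of the 6. Without siCtrl replicate 3, 3 members were lower by both thresholds and 2 were higher by adjusted p alone. Scaling by library totals gave 11 in place of the 20.

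At day 3 the sign was the other way round. By both thresholds 1 gene was higher, against 2.84% of all 14039 genes, and 0 were lower, against 3.80% of all genes. With no fold threshold 8 were higher (7.54% of all genes) and 0 were lower (8.94% of all genes). Before adjustment 24 were higher and 0 lower with p below 0.05, and DESeq2 gave 9 higher and 0 lower by adjusted p alone. The share of members that passed was thus close to the background of all genes. The median was 0.11, beside 0.0073 over all genes, and 63 of the 82 were positive. Small-subunit genes had a median of 0.13 (25 of 29 positive) and large-subunit genes 0.06 (34 of 46 positive).

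Rpl22l1 was again the gene past both thresholds, and with DESeq2 no gene was. It stood at 15.3, 14.9 and 25.3 CPM in siCtrl and at 42.8, 25.4 and 27.2 in siPRMT1 (log2 fold change 0.74, SE 0.201, adjusted p = 0.0197). The groups only just did not overlap: siCtrl replicate 3 stood at 25.3 CPM and siPRMT1 replicate 2 at 25.4, a gap smaller than the spread within either group. Rps27a encodes a small-subunit protein fused to ubiquitin, and it stood at 223, 197 and 304 CPM in siCtrl and 378, 310.2 and 318 in siPRMT1 (0.46, SE 0.126, adjusted p = 0.0214). Rpl22 stood at 152, 141 and 182 CPM in siCtrl and 227, 201 and 201 in siPRMT1 (0.39, SE 0.0907, adjusted p = 0.00894). In each of these genes siCtrl replicate 3 was the siCtrl library nearest to siPRMT1, and siPRMT1 replicate 1 was the highest.

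Rps3a1, a small-subunit protein near the exit of the messenger RNA channel, stood at 470.3, 527 and 590.3 CPM in siCtrl and 778, 665 and 641 in siPRMT1 (0.38, SE 0.0933, adjusted p = 0.0119). Rpl7 stood at 524, 546 and 571 CPM in siCtrl and 734, 677 and 641 in siPRMT1 (0.31, SE 0.0732, adjusted p = 0.00963). The groups did not overlap in either gene. Rps27l (0.41, SE 0.116, adjusted p = 0.0261), Rps13 (0.33, SE 0.0958, adjusted p = 0.0265) and Rps20 (0.30, SE 0.0869, adjusted p = 0.0284) completed the 8. The smallest values among members of at least 10 CPM belonged to Rpl37rt (-0.17), Rps27rt (-0.16) and Rpl34 (-0.15), none of which passed. Without siCtrl replicate 1, siCtrl replicate 2 or siPRMT1 replicate 1 the count of 8 was 3 each time and Rpl22l1 was no longer past both thresholds. Without siCtrl replicate 3 the count was 18 with 3 past both thresholds, and without siPRMT1 replicate 2 it was 7 with 2 past both. Rpl7, Rpl22 and Rps3a1 kept an adjusted p below 0.05 in all 6 fits. The count of 8 was 20 with no filter on low counts and 22 with the trend with gene length removed.

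**Figure D2:**
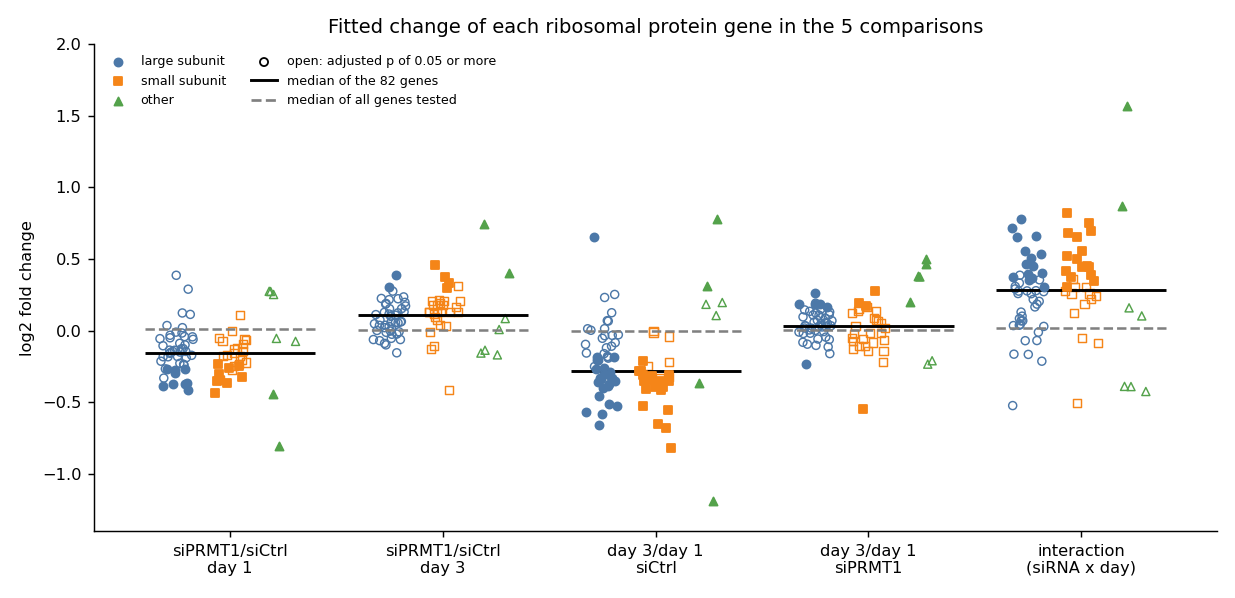
Log2 fold change of the 82 tested genes in the 5 comparisons (blue circles large subunit, orange squares small subunit, green triangles paralogs, copies and Rps19bp1; filled where the adjusted p was below 0.05). Black lines are medians of the 82 genes (-0.16, 0.11, -0.28, 0.03 and 0.29 from left to right) and dashed grey lines medians of all genes tested, which lie within 0.02 of 0.

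In siCtrl cells ribosomal protein messenger RNAs were lower at day 3 than at day 1. By both thresholds 11 members were lower, against 20.4% of all 13829 genes, and 2 were higher, against 22.7% of all genes. By adjusted p alone 47 were lower (28.7% of all genes) and 3 were higher (30.2% of all genes). The median was -0.28, beside -0.0042 over all genes, and 68 of the 82 were negative. All 29 small-subunit genes were negative (median -0.33), and 22 of them passed the adjusted p alone. Of the 46 large-subunit genes 37 were negative (median -0.19) and 23 passed as lower.

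The 11 were Rpl22l1, Rps20, Rps12, Rpl22, Rps27a, Rpl3, Rpl37a, Rps3a1, Rps4x, Rpl7 and Rpl5. Rpl22l1 had the largest size (-1.19, SE 0.226, adjusted p = 0.00127), with the levels already given for each library. Rps20, which sits in the head of the small subunit, stood at 416, 394 and 380.0 CPM at day 1 and 197, 209 and 249.8 at day 3 (-0.82, SE 0.0995, adjusted p = 6.53e-05). Rps12 stood at 534, 519 and 480.0 CPM at day 1 and 274, 279.7 and 374 at day 3 (-0.68, SE 0.12, adjusted p = 0.000777). In both genes the 2 days did not overlap, and replicate 3 was the highest of the day 3 libraries. Rpl3, which lies close to the peptidyl transferase centre, stood at 872, 886 and 921 CPM at day 1 and 534, 556 and 646 at day 3 (-0.58, SE 0.0824, adjusted p = 0.000182).

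The 2 genes that were higher at day 3 by both thresholds were Rps19bp1 and Rpl34. Rps19bp1, also known as AROS, binds RPS19 and the deacetylase SIRT1. It stood at 39.5, 41.8 and 44.2 CPM at day 1 and 62.1, 74.5 and 71.5 at day 3 (0.78, SE 0.0995, adjusted p = 9.04e-05). Rpl34 stood at 18.7, 18.5 and 16.1 CPM at day 1 and 26.5, 28.8 and 26.1 at day 3 (0.65, SE 0.11, adjusted p = 0.000569). The days overlapped in neither gene, and both had low levels for this set. The paralog Rpl7l1, a nucleolar assembly factor rather than a part of the mature ribosome, was the third to pass the adjusted p alone (0.31, SE 0.0803, adjusted p = 0.00722). Leaving out siCtrl replicate 3 of day 3 raised the 11 to 21, and the counts lower by adjusted p alone ran from 38 to 56 over the 6 fits. With the trend with gene length removed the median was -0.52 and 42 members were lower by both thresholds, and scaling by library totals left 6.

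In siPRMT1 few members passed as lower at day 3 than at day 1 without a correction for gene length. The difference from siCtrl is tested below as the interaction. By both thresholds 1 member was lower (17.4% of all 14224 genes) and 0 were higher (19.0% of all genes). By adjusted p alone 2 were lower (31.2% of all genes) and 12 were higher (32.2% of all genes), while 3 were lower and 16 higher with p below 0.05 before adjustment. DESeq2 gave 1 lower and 12 higher by adjusted p alone, and 0 higher by both thresholds. The median was 0.03, beside 0.0022 over all genes, and 52 of the 82 were positive. Adjusting for transcript length turned this median negative (-0.11), as did adjusting for GC content and length together (-0.14), so no direction over time is given for the set in siPRMT1.

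The gene lower by both thresholds was Rps18, at 1.37, 1.28 and 1.33 CPM at day 1 and 0.774, 0.904 and 1.03 at day 3 (-0.55, SE 0.209, adjusted p = 0.0341). With the counts of its copies on other scaffolds added, the value was -0.09 (adjusted p = 0.498), and the call was kept in 1 of the 6 fits that leave out a library, the one without replicate 3 of day 3. Rpl28 was the other member that passed as lower (-0.23, SE 0.0649, adjusted p = 0.00635). The 12 that passed as higher were led by Rps27l and Rpl7l1. Rps27l stood at 74.1, 75.7 and 68.2 CPM at day 1 and 112, 98.3 and 98.1 at day 3 (0.50, SE 0.0733, adjusted p = 4.48e-05), and Rpl7l1 at 199.6, 197 and 201 at day 1 and 293, 270.4 and 263 at day 3 (0.46, SE 0.0592, adjusted p = 1.12e-05). The days did not overlap in either gene. Rps19bp1 (0.38, SE 0.0767, adjusted p = 0.000648) and Rpl27 (0.26, SE 0.056, adjusted p = 0.00108) were also among the 12. Without replicate 3 of day 1 the count of 12 fell to 5, and the count of 2 became 9 without replicate 2 of day 1 and 6 without replicate 1 of day 3. It became 1 without replicate 1 or 3 of day 1 or replicate 2 of day 3, and the median was -0.0009 without replicate 2 of day 1. By both thresholds 1 member was higher without replicate 1 or 2 of day 1 or replicate 3 of day 3, and 2 were without replicate 2 of day 3.

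The change of the knockdown effect between days was tested directly, as the interaction of siRNA and day over all 12 libraries. Each library serves in a knockdown comparison, in a comparison between days and in the interaction, so the counts of the 5 comparisons are not independent of one another. A positive value means that siPRMT1 against siCtrl was higher at day 3 than at day 1. By both thresholds 17 members had a positive interaction, against 4.77% of all 14612 genes, and 0 a negative one, against 3.47% of all genes. With no fold threshold 33 were positive (7.69% of all genes) and 0 negative (4.63% of all genes). With p below 0.05 before adjustment, 48 were positive and 3 negative, and DESeq2 gave 34 and 2 by adjusted p alone. The median was 0.29, beside 0.02 over all genes, and 69 of the 82 were positive. Of the 29 small-subunit genes 16 passed the adjusted p alone (median 0.36), and of the 46 large-subunit genes 15 did (median 0.27).

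Rpl7 had the smallest p of the 82 (0.72, SE 0.0903, adjusted p = 0.000161), followed by Rpl22 (0.78, SE 0.12, adjusted p = 0.00093) and Rps3a1 (0.75, SE 0.127, adjusted p = 0.00178). The largest value was that of Rpl22l1 (1.57, SE 0.325, adjusted p = 0.00645), followed by Rps27l (0.87, SE 0.168, adjusted p = 0.00418) and Rps27a (0.82, SE 0.185, adjusted p = 0.0102). The most negative values, of Rpl34 (-0.52, SE 0.164, adjusted p = 0.051), Rpl37rt (-0.42, SE 0.211, adjusted p = 0.212) and Rps19bp1 (-0.39, SE 0.128, adjusted p = 0.0604), did not pass, although with DESeq2 Rpl34 (-0.53, adjusted p = 0.0229) and Rps19bp1 (-0.40, adjusted p = 0.0281) did. Without siCtrl replicate 2 of day 1 the 17 became 11 and the 33 became 16, and without siPRMT1 replicate 3 of day 1 the 33 became 20. Over the other 10 fits the 17 ran from 12 to 21. The median stayed between 0.23 and 0.34 in all 12. Negative interactions by adjusted p alone appeared for Rpl34, Rps19bp1 and Rpl10a without siCtrl replicate 3 of day 1, for Rpl34 and Rps19bp1 without siPRMT1 replicate 2 of day 1, for Rps19bp1 without siCtrl replicate 1 of day 3 and for Rpl34 without siPRMT1 replicate 3 of day 3.

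The knockdown comparisons at the 2 days share no library, so their values can be set side by side. Of the 82 genes, 61 (74.4%) were negative at day 1 and positive at day 3, against 27.0% of the 13225 genes tested at both days. Across the 82 genes the rank correlation of the 2 log2 fold changes was -0.77, and across all genes -0.04, both given as descriptions over genes, which are not independent replicates. Of the 20 genes lower at day 1 by adjusted p alone, 7 were also among the 8 higher at day 3. These 7 were Rpl7, Rpl22, Rpl22l1, Rps3a1, Rps13, Rps20 and Rps27l. The share of all genes called in this way at both days is not given, so the count of 7 has no background beside it. The time courses of siCtrl and of siPRMT1 share no library either. Their rank correlation was 0.84 across 13669 genes and -0.07 across the 82. The 2 correlations cover unlike ranges. In siPRMT1 the lower and upper quartiles of the 82 were -0.06 and 0.13. Over all genes 19.0% were higher and 17.4% lower by both thresholds there. Whether the narrow range of the 82 accounts for their low correlation was not tested.

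**Figure D3:**
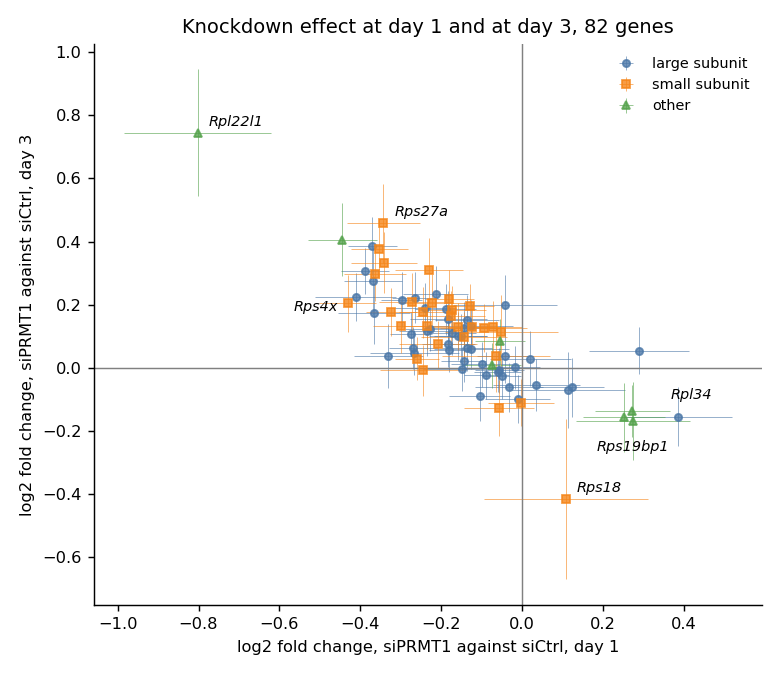
Log2 fold change of siPRMT1 against siCtrl at day 1 (horizontal axis) and at day 3 (vertical axis) for the 82 tested genes, with 1 standard error on each axis (blue circles large subunit, orange squares small subunit, green triangles paralogs, copies and Rps19bp1). The upper left part, lower at day 1 and higher at day 3, holds 61 of the 82, and Rpl22l1 lies farthest out at -0.80 and 0.74.

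None of the stalk genes passed in a knockdown comparison. Rplp0 stood at 2041, 2109 and 2143 CPM in siCtrl and 1893, 1726 and 1755 in siPRMT1 at day 1, and at 1571, 1803 and 1682 in siCtrl and 1787, 1769 and 1764 in siPRMT1 at day 3. Its groups did not overlap at day 1 and did at day 3, and neither difference passed (-0.18, SE 0.0501, adjusted p = 0.0663 and 0.06, SE 0.0701, adjusted p = 0.617). The acidic stalk proteins Rplp1 and Rplp2, which bind elongation factors, had interaction values of -0.01, SE 0.115, adjusted p = 0.971 and 0.28, SE 0.104, adjusted p = 0.096.

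Rpl5 and Rpl11 form with 5S RNA the particle that, outside the ribosome, can bind MDM2 and hold p53 stable. Rpl5 stood at 859, 867 and 797 CPM in siCtrl and 643, 653 and 596 in siPRMT1 at day 1 (-0.37, SE 0.071, adjusted p = 0.0216), and at 536, 512 and 667 in siCtrl and 809.6, 664 and 625 in siPRMT1 at day 3 (0.28, SE 0.107, adjusted p = 0.0912). The groups were apart at day 1 and overlapped at day 3. Rpl11 did not pass at either day (-0.27, SE 0.11, adjusted p = 0.181 and 0.05, SE 0.0708, adjusted p = 0.682). The interaction passed for Rpl5 (0.66, SE 0.148, adjusted p = 0.00974) and did not for Rpl11 (0.33, SE 0.126, adjusted p = 0.0998). Whether the pair differed from each other was not tested.

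The 7 proteins that ring the exit tunnel (Rpl17, Rpl19, Rpl23a, Rpl26, Rpl31, Rpl35 and Rpl39) were all negative at day 1 (median -0.18) and all positive at day 3 (median 0.15). Of these, Rpl39 passed the adjusted p alone at day 1. Rpl39, which lines the tunnel itself, stood at 176, 166 and 158 CPM in siCtrl and 136, 105 and 124 in siPRMT1 at day 1 (-0.41, SE 0.101, adjusted p = 0.0456), and its interaction was 0.66, SE 0.127, adjusted p = 0.0042. Rpl23a, at the docking site for the signal recognition particle, had an interaction of 0.47, SE 0.127, adjusted p = 0.0269, and Rpl26 one of 0.39, SE 0.115, adjusted p = 0.0366. With 1 library at a time left out, Rpl39 kept its pass in the interaction in 12 of 12 fits, Rpl23a in 7 and Rpl26 in 4. Rpl19 had 0.19, SE 0.0762, adjusted p = 0.128 and did not pass.

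Among the proteins on the path of the messenger RNA, Rps2 and Rps3 stand at its entry. Rps3 had an interaction of 0.35, SE 0.0961, adjusted p = 0.0298, and Rps2 0.26, SE 0.141, adjusted p = 0.255. Of the proteins at the decoding centre, Rps23 had 0.45, SE 0.135, adjusted p = 0.0425 and passed the adjusted p alone. Rps15 had -0.09, SE 0.112, adjusted p = 0.665 and did not pass. With 1 library at a time left out, Rps3 kept its pass in 5 of 12 fits and Rps23 in 3 of 12. Whether members at a site differed from one another was not tested. Rps27a, which enters the ribosome after ubiquitin is cut off, passed by both thresholds. At day 1 it stood at 412, 402 and 356 CPM in siCtrl and 313, 306 and 274 in siPRMT1 (-0.34, SE 0.0898, adjusted p = 0.056). Of the 4 genes listed for the exit of the messenger RNA channel, 1 passed the adjusted p alone in the interaction. Rps14, Rps26 and Rps28 did not pass (0.36, -0.05 and 0.12). Rps3a1, described above as near that exit, passed by both thresholds (0.75). With the counts of suffixed rows added, Rps28 was higher in siPRMT1 at day 3 by 0.52 (adjusted p = 0.0319) instead of 0.04 (adjusted p = 0.852). The added row, named Rps28 with the suffix 2, held 51 to 813 counts per library.

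Of the other members with a role outside translation, Rps6 had an interaction of 0.31, SE 0.0761, adjusted p = 0.0168. Rps19, whose loss underlies Diamond-Blackfan anaemia, had -0.09, SE 0.108, adjusted p = 0.652 at day 1 and 0.13, SE 0.0761, adjusted p = 0.273 at day 3. Rpl13a, which can leave the ribosome to silence inflammatory messenger RNAs, had -0.14, SE 0.0796, adjusted p = 0.341 and 0.15, SE 0.0773, adjusted p = 0.192. Neither passed at either day. Of the members whose windows were printed with a run at the annotated start, Rps27, Rpl28, Rpl15, Rpl35 and Rps6 had interaction values of 0.30, 0.10, 0.30, 0.22 and 0.31. Rpl22l1 and Rps27l, printed with a run that begins after the start, had 1.57 and 0.87. Of those printed with no run, Rps3a1, Rps4x and Rplp0 had 0.75, 0.65 and 0.26. Rps15 and Rpl37rt, which also had no run in their windows, had negative values. The printed genes are only some of the members, and whether a run goes with the interaction was not tested.

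**Figure D4:**
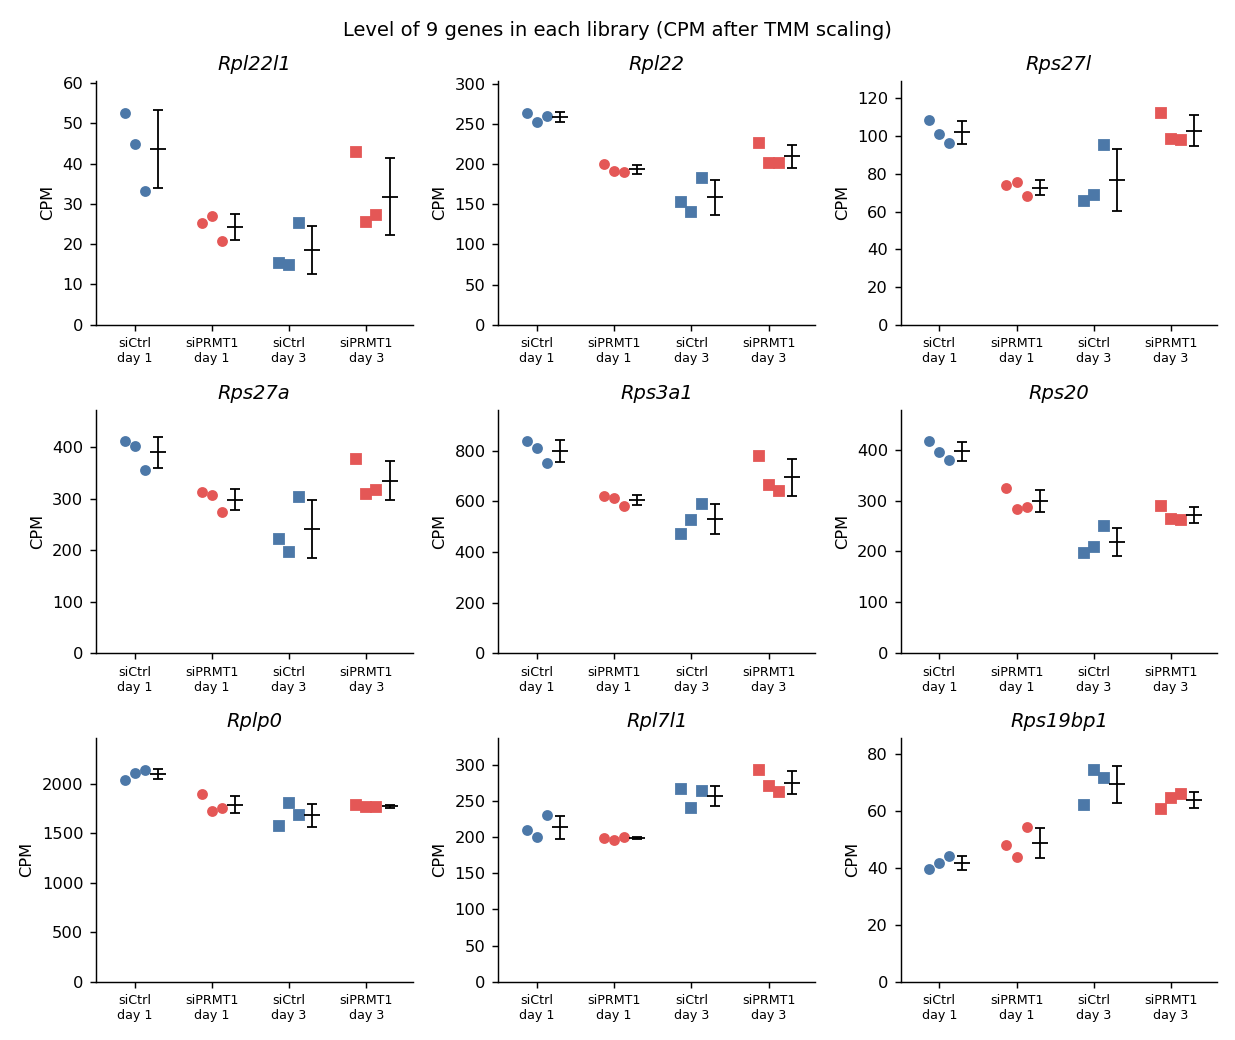
Level of 9 genes in every library (CPM after TMM scaling, linear axes from 0). Points are libraries (blue siCtrl, red siPRMT1, circles day 1, squares day 3) and bars are the mean with 1 SD. For Rpl22l1, Rpl22, Rps27l, Rps27a, Rps3a1 and Rps20 all siPRMT1 points lie below the siCtrl points at day 1 and above them at day 3. For Rplp0 they lie below at day 1 and overlap at day 3, and for Rpl7l1 and Rps19bp1 they overlap at both days. By adjusted p, Rplp0, Rpl7l1 and Rps19bp1 did not pass in either knockdown comparison, and Rps27a did not pass at day 1.

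Of the 11 paralogs and copies, 6 were tested. At day 1 their median was -0.06 with 4 of 6 negative, and at day 3 0.05 with 4 of 6 positive. Rpl22l1 and Rpl22 carried the same sign in both knockdown comparisons. Rpl22l1 had a mean of 53.1 FPKM beside 81.8 for Rpl22, at deposited lengths of 553 and 2497 bases. Rps27l, a p53-inducible relative of Rps27, stood at 109, 101 and 96.3 CPM in siCtrl and 74.1, 75.7 and 68.2 in siPRMT1 at day 1 (-0.44, SE 0.085, adjusted p = 0.0213), and at 65.8, 68.7 and 95.5 in siCtrl and 112, 98.3 and 98.1 in siPRMT1 at day 3. The groups did not overlap at either day. Rps27 itself had -0.21, SE 0.0968, adjusted p = 0.231 at day 1 and 0.07, SE 0.0752, adjusted p = 0.534 at day 3. Whether Rps27l and Rps27 differed was not tested.

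Rpl7l1 had -0.05, SE 0.0613, adjusted p = 0.65 at day 1 and 0.08, SE 0.0717, adjusted p = 0.451 at day 3, whereas Rpl7 passed at both days with opposite signs. Rpl36al had -0.07, SE 0.0726, adjusted p = 0.585 and 0.01, SE 0.0702, adjusted p = 0.951, and Rpl36a -0.14, SE 0.0806, adjusted p = 0.314 and 0.13, SE 0.0804, adjusted p = 0.297, none of which passed. Rpl3l, Rpl10l, Rpl39l and Rps4l were at or under the limit of detection, so no fold is given beside Rpl3, Rpl10, Rpl39 and Rps4x. A count of 0 in a library allows up to 0.0708 to 0.199 CPM at these depths, for counting error only. Paralogs and parent genes that differ by few bases may exchange reads.

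The size of the difference varied with base composition among these genes. Over the 82 genes the rank correlation of the log2 fold change with the GC content of the transcripts was 0.40 at day 1, -0.55 at day 3 and -0.48 in the interaction. Over all genes it was 0.19, -0.30 and -0.33. Split at a GC content of 50.8%, the 41 members of low GC held 15 of the 20 that were lower at day 1 and all 8 that were higher at day 3. They also held 23 of the 33 that passed in the interaction. The medians of the low and high GC members had the same sign. They were -0.22 and -0.14 at day 1, 0.13 and 0.04 at day 3, and 0.37 and 0.22 in the interaction. The trend with GC content and length was also removed from each library, a correction added after the data were seen. The medians over the 82 genes were then -0.19 at day 1, 0.16 at day 3 and 0.33 in the interaction. Medians over all genes in that fit were -0.015, 0.0026 and 0.0080. The correction raised the count lower at day 1 from 20 to 35 and the count higher at day 3 from 8 to 37. The shares of all genes called in that fit are not given here, so these counts have no background beside them. Correlation with mean FPKM was -0.18 at day 1 and 0.08 at day 3.

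**Figure D5:**
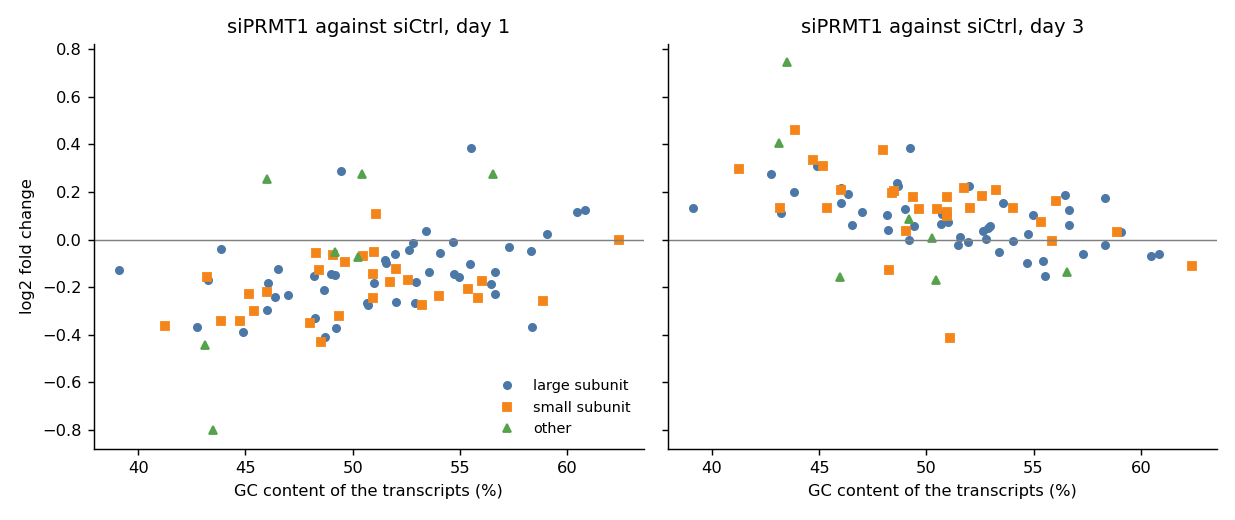
Log2 fold change of siPRMT1 against siCtrl at day 1 (left) and at day 3 (right) against the GC content (%) of the transcripts of the 82 tested genes (blue circles large subunit, orange squares small subunit, green triangles paralogs, copies and Rps19bp1). Values rise with GC content at day 1 (rank correlation 0.40) and fall with it at day 3 (-0.55).

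Other genes of ribosome production and translation were counted from lists. Rpsa, Fau and Rack1, which encode ribosomal proteins under names of another form, had no call in either knockdown comparison, and of these Rack1 passed the adjusted p alone over time in siCtrl (0.30, SE 0.0987, adjusted p = 0.0225). Translation factors and other genes with TOP messenger RNAs had a median of -0.14 at day 1 and 0.13 at day 3. By adjusted p alone 5 of 20 were lower at day 1 (4.38% of all genes) and 3 of 20 higher at day 3 (7.54% of all genes). In the interaction 11 of the 20 passed as positive (7.69% of all genes) and 0 as negative (4.63% of all genes), with a median of 0.31. Eef1b2, a subunit of the exchange factor for eEF1A, stood at 565, 616 and 621 CPM in siCtrl and 486, 469 and 479.7 in siPRMT1 at day 1 (-0.28, SE 0.0567, adjusted p = 0.0242), and at 342, 369 and 406 in siCtrl and 546, 452 and 471 in siPRMT1 at day 3 (0.38, SE 0.0876, adjusted p = 0.00802). The siPRMT1 libraries lay below siCtrl at day 1 and above at day 3.

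The 49 tested genes of RNA polymerase I and the nucleolus, which make and process ribosomal RNA, had a median of 0.11 at day 1 and 0.02 at day 3. By adjusted p alone 3 were higher (3.22% of all genes) and 1 lower (4.38%) at day 1. At day 3, 1 was higher (7.54% of all genes) and 1 lower (8.94%). Over time in siCtrl 40 of the 49 were higher by adjusted p alone (30.2% of all genes) and 1, Rrp1b, was lower (28.7% of all genes), with a median of 0.54. In siPRMT1 43 were higher (32.2% of all genes) and 3, Taf1b, Taf1d and Rrp1b, were lower (31.2% of all genes), with a median of 0.44. Rrn3, an initiation factor of RNA polymerase I, stood at 153, 144 and 162 CPM in siCtrl and 101, 102 and 100.3 in siPRMT1 at day 1 (-0.55, SE 0.0622, adjusted p = 0.00354), and was also lower at day 3 (-0.29, SE 0.0685, adjusted p = 0.00855). Rrp12, which helps export the subunits, was higher at day 1 (0.53, SE 0.0884, adjusted p = 0.0139).

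Of 17 tested regulators upstream of ribosome production, 2 were higher at day 1 (3.22% of all genes) and 1 lower at day 3 (8.94% of all genes) by adjusted p alone. Eif4ebp1, the translation repressor that mTORC1 inactivates, stood at 120.3, 124 and 132 CPM in siCtrl and 175, 176 and 206 in siPRMT1 at day 1 (0.62, SE 0.0799, adjusted p = 0.00558), and at 266, 319 and 267 in siCtrl and 195, 234 and 239 in siPRMT1 at day 3 (-0.37, SE 0.0899, adjusted p = 0.0113). It was higher in every siPRMT1 library at day 1 and lower in every one at day 3, signs opposite to the medians of the ribosomal protein genes. Larp1, which binds TOP tracts, was higher at day 1 (0.31, SE 0.0585, adjusted p = 0.0199). None of 5 genes of p53 and its regulators passed in either knockdown comparison by edgeR (2 at an unadjusted p under 0.05 at each day).

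Mitochondrial ribosomal protein genes, 76 of which were tested, had a median of 0.03 at day 1 and -0.09 at day 3. By adjusted p alone 1 was higher (3.22% of all genes) and 3 were lower (4.38%) at day 1. At day 3, 1 was higher (7.54% of all genes) and 10 were lower (8.94%). Over time in siCtrl 58 of the 76 were higher by adjusted p alone (30.2% of all genes) and 4 were lower (28.7%), with a median of 0.61, where the cytosolic genes had a median of -0.28. In siPRMT1 58 were higher (32.2% of all genes) and 3 were lower (31.2%), with a median of 0.46. Mrps6, a small-subunit protein of the mitochondrial ribosome, had the smallest p at day 1 (-0.96, SE 0.098, adjusted p = 0.00302), and Mrpl12, which also binds the mitochondrial RNA polymerase, had the smallest over time in siCtrl (1.73, SE 0.0959, adjusted p = 3.04e-07).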

How the data were processed

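RNA of 3T3-L1 cells was sequenced in 12 libraries, 3 in each of 4 groups, which were taken from the sample labels. The depth of 15116462 to 42357137 counts and the 3 libraries per group set the precision. Per the study's methods and the submitters' processing notes, the authors trimmed reads with cutadapt 1.11 and mapped them to mm10 with HISAT2 2.1.0; RSEM 1.2.6 is also named in the notes, without a role. The deposited tables hold raw counts per gene and FPKM values, and recomputing FPKM from the deposited counts, lengths and column totals gave differences of at most 0.005. The counting tool, its strand setting and its treatment of reads that fit several places are not given in the sources used here.

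Counts were tested in R 4.3.3 with edgeR 4.0.16 (TMM scaling, filterByExpr, quasi-likelihood F test, Benjamini-Hochberg adjustment over all genes tested), each comparison on its own 6 libraries and the interaction on all 12. A call by both thresholds needed an adjusted p below 0.05 and an absolute log2 fold change above 0.5, the thresholds of the study. SE was derived from the fitted log2 fold change and its F statistic. FPKM served to compare levels between genes. GC content was read from GENCODE vM21 transcripts for all 88 members, and start windows from RefSeq (GRCm38.p6). Gene names with a numeric suffix (2266 rows, 0.612% of counts) lie on other scaffolds and were kept apart. The fit was tested on simulated data.

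The members and the lists were chosen with earlier results of these data known. Named were the members past the thresholds, the 5 highest and 5 lowest by FPKM, the paralog pairs, members of parts of the ribosome, the 3 most positive and 3 most negative values in each comparison (at least 10 CPM), the 3 smallest interaction p-values, and the 2 smallest p-values of each list in each comparison, of which some are given. Alternatives were DESeq2 1.42.0, RLE scaling, library totals, other filters, 1 model over all libraries, a replicate block, removal of length trends, and leaving out each library. Removal of GC and length trends together, and adding counts of suffixed rows to Rps28, Rps18, Rps10, Rpl10a and Rps4l, were chosen after seeing the data. Same-numbered libraries did not deviate together, with correlations between -0.18 and 0.23, so the numbers were not taken to pair them. The values of a few genes are not reported here by name, although all were fitted and counted.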

Additional observations from a re-analysis of the deposited data

Results flagged for a closer look

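For 17 members the effect of the knockdown differed between day 1 and day 3 by the interaction of siRNA and day (edgeR's quasi-likelihood test over all 12 libraries), with an adjusted p below 0.05 and a log2 size above 0.5. All 17 had a positive interaction, meaning that siPRMT1 against siCtrl was higher at day 3 than at day 1. The values included 1.57 for Rpl22l1, 0.87 for Rps27l, 0.82 for Rps27a, 0.78 for Rpl22, 0.75 for Rps3a1, 0.72 for Rpl7, 0.69 for Rps13 and 0.68 for Rps20. They also included 0.66 for Rpl5, 0.66 for Rpl39, 0.65 for Rps4x, 0.56 for Rpl37a, 0.56 for Rps12, 0.53 for Rpl10, 0.52 for Rps7 and 0.51 for Rpl3. With 1 library at a time left out, Rps12 kept an adjusted p below 0.05 in 5 of 12 fits and Rpl37a in 8 of 12. The other genes named here kept it in 12 of 12.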

How the results depend on the processing

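The counts in this section are of members only, and no share of all genes is given for the alternatives. Medians over the members kept their direction in the knockdown comparisons, in siCtrl over time and in the interaction under every alternative run. The median over time in siPRMT1 was reversed with the length trend removed (-0.11), with GC and length trends removed (-0.14) and without siPRMT1 replicate 2 of day 1 (-0.0009). In the fit with GC and length trends removed, Rpl6 (-0.016), Rplp2 (-0.035) and Rps7 (-0.010) also changed sign over time in siPRMT1.

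At day 1 the count lower by both thresholds (1) was 20 without the fold threshold and 2 with the length trend removed, and the count lower by adjusted p alone (20) was 11 with library totals and 35 with GC and length trends removed. At day 3 the count higher by both thresholds (1) was 0 with DESeq2 and in 1 model of all libraries, 8 without the fold threshold, and 2 with the length trend removed or suffixed rows added. The count higher by adjusted p alone (8) was 20 with no filter on low counts, 22 with the length trend removed and 37 with GC and length trends removed.

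In siCtrl over time, the count lower by both thresholds (11) was 6 with library totals, 47 without the fold threshold, 42 with the length trend removed and 44 with both trends removed. The count higher (2) was 1 and 0 in the last 2 fits. The count lower by adjusted p alone (47) was 71 in both, with medians of -0.52 and -0.54, and the count higher (3) was 5 with library totals. In siPRMT1 over time, the count higher by both thresholds (0) was 1 with library totals or 1 model of all libraries and 12 without the fold threshold. The count lower (1) was 0 with DESeq2 or suffixed rows added and 2 without the fold threshold. The count higher by adjusted p alone (12) was 3 with the length trend removed and 4 with both trends removed. The count lower (2) was 1 with DESeq2 or suffixed rows added, 8 with no filter, 27 with the length trend removed and 47 with both removed.

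In the interaction the count by both thresholds (17) was 11 with library totals and 33 without the fold threshold, and the median was 0.37 with the length trend removed. A negative interaction by both thresholds was found for 1 gene, Rpl34, with RLE scaling, library totals, DESeq2 or a minimum of 10 counts. At any fold 1 was negative with RLE scaling or no filter and 2 with library totals, DESeq2 or the minimum of 10, the second being Rps19bp1. Without the 100 highest genes that are no members, the members' share of counts was 3.86% and 3.47% at day 1 and 3.31% and 3.59% at day 3, in siCtrl and siPRMT1.

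Under a replicate block the count lower over time in siPRMT1 was 0 by both thresholds and 1 by adjusted p alone, and 1 gene, Rps19bp1, had a negative interaction by adjusted p alone. No other count moved by over 1.5 times under the block.

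With 1 library at a time left out, at day 1 the count lower ran from 0 to 3 by both thresholds and from 0 to 50 by adjusted p alone, and the count higher by adjusted p alone from 0 to 2. At day 3 the count higher ran from 0 to 3 and from 3 to 18. In siCtrl over time the count lower ran from 10 to 21 and from 38 to 56, and the count higher by adjusted p alone from 2 to 4. In siPRMT1 over time the count higher ran from 0 to 2 and from 5 to 17, the count lower from 0 to 1 and from 1 to 9, and the median from -0.0009 to 0.065. In the interaction the positive count ran from 11 to 21 and from 16 to 44, and the negative count from 0 to 1 and from 0 to 3. The medians ran from -0.23 to -0.13 at day 1, 0.044 to 0.14 at day 3, -0.38 to -0.25 in siCtrl over time and 0.23 to 0.34 in the interaction. The cause of these changes was not tested. Counts of Rps10 did not pass the filter on low counts, and the low counts of Rps18 limit the precision of its values.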
